A study of Mus musculus with 5 samples.

Results

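miR-1, miR-206 and miR-133a (mmu-miR-1, mmu-miR-206 and mmu-miR-133a in the files) are 3 of the 593 mature miRNA names listed for 5 mouse testis cell libraries. They were taken by name because they are the best known miRNAs of striated muscle. Small RNA came from testes of C57BL/6 mice after magnetic sorting of the cells by Thy1.2, a surface protein found on spermatogonial stem cells and also on T lymphocytes. There were 2 libraries of the retained Thy1+ cells, enriched for spermatogonial stem cells, 2 of the depleted Thy1- cells, enriched for somatic cells, and 1 of germ cells cultured from the Thy1+ fraction for about 10 passages. The labels give no age, no feeder layer or medium for the culture, and no statement on whether replicates are separate animals. The p-values therefore reflect only how much these samples vary, which may be technical. Levels are shares of a library's miRNA reads in bulk cell populations, so fewer cells of a type and less of a miRNA per cell cannot be told apart.

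miR-1 and miR-206 are close relatives. They share the seed, the bases at positions 2 to 8 through which a miRNA finds its targets, and can therefore repress overlapping sets of messages. miR-1 is made in heart and skeletal muscle together with miR-133a, which has another seed and comes from the same primary transcripts. miR-206 is made mainly in skeletal muscle, together with miR-133b, and is known for promoting myoblast differentiation. In cardiac muscle, miR-208a, miR-208b and miR-499 are carried within myosin heavy chain genes.

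RefSeq (GRCm38.p6) gave the mature sequence of 1 of the 3 members. The sequences of miR-206 and of its cluster partner miR-133b are shown 5′ to 3′ with the seed in capitals, since the seeds separate the miR-1/miR-206 family from the miR-133 family, and the Mir206 hairpin is shown with the mature arm in capitals.
mmu-miR-206-3p: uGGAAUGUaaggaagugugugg
mmu-miR-133b-3p: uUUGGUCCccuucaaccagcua
Mir206 hairpin: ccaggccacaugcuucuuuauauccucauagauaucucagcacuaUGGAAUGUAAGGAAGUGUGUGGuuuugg

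The Mir206 hairpin lies on the plus strand of chromosome 1 at 20679010 to 20679082, and Mir133b lies downstream at 20682769 to 20682887, with 3686 bases between them. Both overlap an exon of the long non-coding RNA gene Gm28653 (20669882 to 20684298) in GENCODE M21. A copy of miR-1, Mir1a-1, lies on chromosome 2 at 180389048 to 180389124, and a copy of miR-133a, Mir133a-2, at 180398379 to 180398482, both inside the span of the RefSeq non-coding gene Mir1a-1hg (180385604 to 180401802). Mature miR-1 and miR-133a are also encoded at a second locus, and the reads do not tell the copies apart.

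Whether the near relatives can be told apart in these reads was examined tag by tag, a tag being a distinct read sequence. The most read tags of miR-206 and miR-1 have 22 bases each and differ at 4 positions, 11, 17, 21 and 22, counted from the 5′ end. The tags of miR-206 with the most reads are printed as DNA, with the bases at these positions in capitals, followed by the only tag tied between miR-206 and miR-1.
miR-206, full length: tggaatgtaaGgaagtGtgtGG
miR-206, 21 bases: tggaatgtaaGgaagtGtgtG
miR-206, 20 bases: tggaatgtaaGgaagtGtgt
Tied with miR-1: atgtaaGgaagtAtg
The full-length tag had 5156 reads over the 5 libraries, namely 121 and 297 in Thy1+, 72 and 61 in Thy1- and 4605 in the culture. The 21-base tag had 243 reads and the 20-base tag 187. The tied tag had 1 read in all, in Thy1- replicate 2, and carried 1 mismatch to either miRNA, so the order of miR-206 and miR-1 does not rest on how ties were shared.

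Both inner positions, 11 and 17, are informative because trimming of the 3′ end leaves them in place in all but the shortest reads. Of 7002 reads placed on miR-1, 6940 (99.1%) had the miR-1 base at both, and 15 had the miR-206 base at 1 of them or both. Of 6069 reads placed on miR-206, 6036 (99.5%) had the miR-206 base at both, and 11 had a miR-1 base. In the culture, where miR-206 was the more abundant, 1 of 480 miR-1 reads carried a miR-206 base at an inner position (0.208%, 95% Clopper-Pearson interval 0.00527% to 1.16%), and 5 of 5427 miR-206 reads a miR-1 base. The largest share was in Thy1- replicate 1, with 5 of 86 miR-206 reads (5.81%, interval 1.91% to 13.0%). In that library 5 miR-206 reads had only 15 bases and 6 carried 2 mismatches. Whether these were the same reads was not tested.

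miR-206 was highest in the culture, intermediate in Thy1+ and lowest in Thy1-. Its level, in counts per 1000000 miRNA counts of the library (CPM), was 149 in Thy1+ replicate 1 (interval 126 to 176), 362 in replicate 2 (325 to 402), 33.7 in Thy1- replicate 1 (27.0 to 41.7), 14.7 in replicate 2 (11.5 to 18.5) and 1062 in the culture (1034 to 1091). The intervals are 95% Clopper-Pearson and cover counting error only. No library of one group reached the range of another, and the replicates within a fraction differed by 2.42 times in Thy1+ and 2.30 times in Thy1-. By abundance miR-206 ranked 69 in the culture, 210 and 167 in Thy1+ and 281 and 320 in Thy1-.

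miR-1 was highest in Thy1+ and lowest in the culture. It stood at 1374 CPM in Thy1+ replicate 1 (interval 1300 to 1451), 1311 in replicate 2 (1239 to 1385), 998 in Thy1- replicate 1 (960 to 1037), 295 in replicate 2 (280 to 311) and 93.9 in the culture (85.7 to 102.7). The Thy1+ libraries lay within 1.05 times of each other, while the Thy1- libraries were 3.38 times apart. The culture was below every fresh library, although it had the most miRNA counts of the 5.

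miR-133a, the partner of miR-1, was close to the limit of detection in every library except Thy1- replicate 1. It had 1 and 3 counts in Thy1+ (1.07 and 3.17 CPM), 18 and 2 in Thy1- (7.06 and 0.407 CPM) and 0 in the culture, for which the limit, taken as 3 counts, is 0.587 CPM. Thy1- replicate 1 held 18 of the 24 counts. Since several of these counts are at or under 3, no fold of miR-133a between groups is read as a size.

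**Figure D1:**
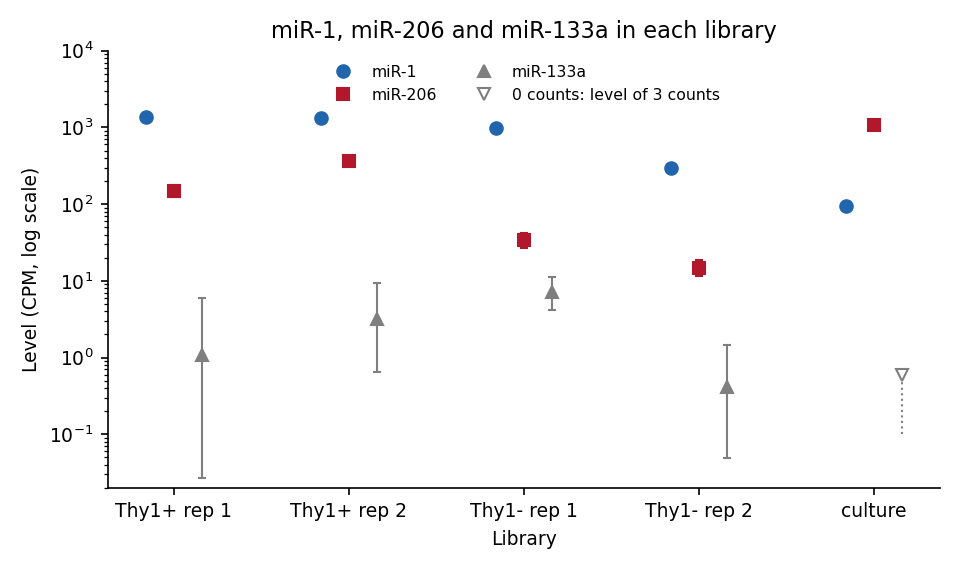
Level of each miRNA (CPM, log scale) in each of the 5 libraries, with 95% Clopper-Pearson intervals from the counts; the open triangle marks 0.587 CPM, the level of 3 counts, for the 0 counts of miR-133a in the culture. miR-1 lies above miR-206 in the 4 fresh libraries and below it in the culture, and miR-133a is below both in every library.

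The balance of the near relatives does not depend on the other miRNAs of a library. miR-206 made up 9.81% (interval 8.32% to 11.5%) and 21.6% (19.6% to 23.8%) of the summed miR-206 and miR-1 counts in Thy1+, 3.27% (2.62% to 4.02%) and 4.73% (3.72% to 5.92%) in Thy1-, and 91.9% (91.1% to 92.6%) in the culture. miR-1 thus exceeded miR-206 by 9.19 and 3.62 times in Thy1+ and by 29.6 and 20.1 times in Thy1-, and was exceeded 11.3 times in the culture. On the log2 scale with 0.5 CPM added to each level, the ratio of miR-206 to miR-1 was -2.53 ± 0.95 in Thy1+ and -4.58 ± 0.41 in Thy1- (SD, n = 2). The difference of 2.05 between the fractions, with both Thy1+ libraries above both Thy1- libraries, had p = 0.33 in a two-sided exact permutation test, the smallest value 2 against 2 libraries can reach. The difference was 1.38 without Thy1+ replicate 2 and 2.72 without Thy1+ replicate 1. The culture, at 3.49, was 5.35 above the higher Thy1+ library. That value is given without a test.

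**Figure D2:**
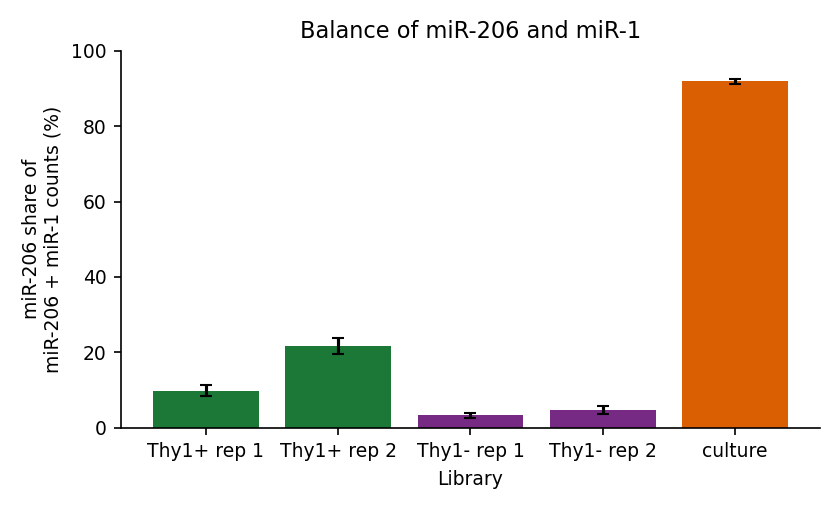
Share of miR-206 in the summed counts of miR-206 and miR-1 in each library (%), with 95% Clopper-Pearson intervals; bars are coloured by group. The share is between 3.27% and 21.6% in the fresh libraries and 91.9% in the culture.

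The first comparison asked how the stem cell enriched Thy1+ fraction differs from Thy1-. miR-206 averaged 256 ± 150.3 CPM in Thy1+ and 24.2 ± 13.5 in Thy1- (SD, n = 2). Fitted with TMM scaling, which sets the typical miRNA to no change, its log2 rise was 2.84 (SE 0.65, edgeR adjusted p = 0.0221). The level of miR-1 averaged 1342 ± 44.5 CPM in Thy1+ against 647 ± 496.8 in Thy1-. Its log2 difference of 0.58 in the same fit (SE 0.59, edgeR adjusted p = 0.505) did not pass the test. miR-133a had too few counts to be tested. Of 425 miRNAs tested, 87 were higher in Thy1+ (20.5%) and 33 lower (7.76%), with a median log2 difference of -0.07, so 1 called member of 2 tested says nothing particular about the family. Under total count scaling the split was 110 higher and 11 lower. With it miR-206 rose by 3.41, and miR-1 differed by 1.05 (edgeR adjusted p = 0.271). The log2 rise of miR-206 was 3.24 without Thy1+ replicate 1 and 2.30 without Thy1+ replicate 2. Its call was lost in both fits, which left 1 library in the Thy1+ group, and the loss was not particular to miR-206. miR-1 moved with the Thy1- library used, to 1.65 without replicate 1 and 0.02 without replicate 2.

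White blood cell miRNAs moved in the same direction as miR-206 between the fractions. The summed level of the 5 markers miR-142-3p, miR-142-5p, miR-150, miR-155 and miR-223 was 14904 and 26540 CPM in the Thy1+ libraries against 2017 and 1346 in the Thy1- libraries, and all 5 rose. The 6 germ cell markers miR-182, miR-183, miR-96, miR-741, miR-880 and miR-881 summed to 124243 and 121994 CPM in Thy1+ against 16945 and 10267 CPM in Thy1-, and all 6 rose. The 3 red blood cell markers, miR-144, miR-451 and miR-486, summed to 252 and 179 CPM in Thy1+ against 1344 and 1475 CPM in Thy1-, and all 3 fell. These calls are from edgeR with TMM scaling, by which 20.5% of all miRNAs tested were higher in Thy1+ and 7.76% lower. The marker lists were chosen with earlier results of these data known, so the counts are no independent support. The part of any of these cells in the rise of miR-206 was not tested.

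The culture was then set against the fresh fractions one at a time. The model used all 5 libraries and took the spread of the lone culture from that of the fresh groups. Both comparisons use the same culture library. Against Thy1+, the log2 rise of miR-206 was 3.76 (SE 0.71, edgeR adjusted p = 0.0105) and miR-1 differed by -2.19 (SE 0.83, edgeR adjusted p = 0.0823), which missed the threshold of 0.05. Against Thy1-, miR-206 rose by 6.56 (SE 0.78, edgeR adjusted p = 0.00215) and miR-1 differed by -1.66 (SE 0.80, edgeR adjusted p = 0.139). miR-133a did not pass in either comparison (edgeR adjusted p = 0.339 and 0.145). These values are relative to the bulk of miRNAs, because the scaling used, TMM, sets the typical miRNA to no change.

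The choice of scaling bears on both members. Total count scaling moved the median log2 difference of all miRNAs by -1.64 against Thy1+ and by -1.04 against Thy1-. Under it miR-206 was still higher than in Thy1+ at 2.05, without passing (edgeR adjusted p = 0.0723), and higher than in Thy1- at 5.46 (edgeR adjusted p = 0.00437). miR-1 then passed as lower than Thy1+ at -3.84 (edgeR adjusted p = 0.0177) and lower than Thy1- at -2.78 (edgeR adjusted p = 0.0498). The direction of each was the same under both scalings.

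Against Thy1+, 42 of 470 miRNAs were higher in the culture (8.94%) and 63 lower (13.4%), or 9 and 164 under total count scaling. Against Thy1-, 85 were higher (18.1%) and 79 lower (16.8%), or 34 and 121 under total count scaling. Of the 3 members tested, 1 was called higher and 0 lower in each comparison. The call for miR-206 against Thy1+ was lost when either Thy1+ library was left out, with log2 rises of 3.31 without replicate 1 (edgeR adjusted p = 0.0801) and 4.03 without replicate 2 (edgeR adjusted p = 0.136). In both of these fits 0 miRNAs passed edgeR, with 145 and 120 at an unadjusted p under 0.05. miR-1 passed as lower in the culture without Thy1- replicate 2, against Thy1+ (edgeR adjusted p = 0.0331) and against Thy1- (edgeR adjusted p = 0.0405). miR-133a also passed as lower than Thy1- without that library (edgeR adjusted p = 0.0268), a fit in which Thy1- replicate 1, with most of its counts, was the whole Thy1- group. Without Thy1- replicate 1 it had too few counts to be tested.

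**Figure D3:**
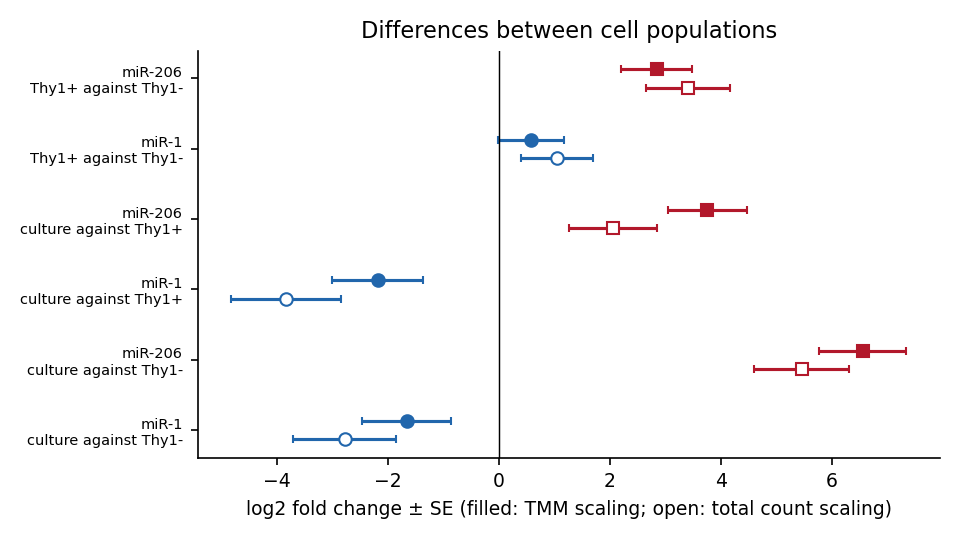
Log2 fold change with its SE for miR-206 and miR-1 in the 3 comparisons, from edgeR with TMM scaling (filled) and total count scaling (open). miR-206 is above 0 in every comparison under both scalings, and miR-1 is below 0 in both culture comparisons.

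The other striated muscle miRNAs did not accompany miR-206 in the culture. Of the 7 on the list, miR-133a, miR-133b and miR-499 had 0 counts there, and miR-208a and miR-208b had 1 count each. The summed level of these 5 was 5.34 and 15.8 CPM in the Thy1+ libraries, 17.3 and 4.68 in the Thy1- libraries and 0.391 in the culture. miR-208b, carried by the slow myosin gene Myh7, was the most counted of the 5, with 3 and 6 counts in Thy1+, 19 and 17 in Thy1- and 1 in the culture. Its fitted log2 difference was -2.79 for the culture against Thy1+ (edgeR adjusted p = 0.173), -3.53 against Thy1- (edgeR adjusted p = 0.0641) and -0.70 for Thy1+ against Thy1- (edgeR adjusted p = 0.466), none of which passed. miR-499 had 1 and 4 counts in Thy1+ and 3 and 2 in Thy1-, and miR-208a had at most 1 count in any library.

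Products that share a transcript with a member were also rare. miR-133b had 0 counts in the culture beside 5427 of miR-206, so miR-206 was at least 1809-fold higher, taking 3 counts in that library as the floor. Likewise miR-1, with 480 counts, was at least 160-fold higher than miR-133a there. In Thy1- replicate 1, which had the most reads of miR-133a, miR-1 exceeded it 141 times (interval 89.2 to 239). Both products of each pair have 22 bases, but how efficiently each was ligated, amplified and placed was not tested. The minor strand miR-133a* had between 0 and 4 counts per library, and miR-1-2-as, listed as an antisense product of a miR-1 locus, had 1 count in Thy1+ replicate 2 and none elsewhere.

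The reads of miR-133a and miR-133b were separated less fully than those of miR-1 and miR-206. Of 30 reads placed on miR-133a, 11 were tied with miR-133b, and all 11 reads placed on miR-133b were tied in this way. No read in any library was placed on miR-133b alone. Of these 11 reads, 7 were in Thy1- replicate 1, 2 in Thy1- replicate 2 and 2 in Thy1+ replicate 2. Of the 19 reads placed on miR-133a alone, none was in the culture.

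Markers of other cells gave the following levels in the culture. The 5 smooth muscle and fibroblast markers, miR-143, miR-145, miR-199a-3p, miR-199a-5p and miR-214, summed to 52881 CPM in the culture, to 23006 and 29905 in the Thy1+ libraries and to 39633 and 22762 in the Thy1- libraries. miR-143 alone held 37950 CPM of the culture sum. By edgeR with TMM scaling, 4 of these 5 rose with miR-206 against Thy1+, and 2 of 5 (miR-143 and miR-199a-3p) against Thy1-. For Thy1+ against Thy1-, where miR-206 rose, 0 of the 5 were called higher or lower. Their log2 differences there ran from -1.38 (miR-145) to -0.70 (miR-143). Of all 425 miRNAs tested between these fractions, 20.5% were called higher and 7.76% lower. The white blood cell markers summed to 937 CPM in the culture, where 3 of 5 fell against Thy1+ and 1 of 5, miR-155, rose against Thy1-. The red blood cell markers summed to 12.5 CPM. The germ cell markers summed to 53576 CPM in the culture, below the 124243 and 121994 CPM of the Thy1+ libraries. This sum was above the 16945 and 10267 CPM of the Thy1- libraries. By edgeR with TMM scaling, 6 of 6 rose against Thy1-, while none of 6 passed against Thy1+. Over all 470 miRNAs tested, 8.94% were called higher and 13.4% lower against Thy1+, and 18.1% and 16.8% against Thy1-. The sums are CPM, while the calls use TMM scaling. Total count scaling moved the median log2 difference by -1.64 against Thy1+ and by -1.04 against Thy1-. The part of any of these cell types in the level of miR-206 was not tested.

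Most reads of miR-1 and miR-206 spanned the whole mature miRNA in every library. Reads of 22 bases made up 81.7% to 87.6% of miR-1 reads and 87.2% to 91.0% of miR-206 reads, and reads starting at base 1 made up 99.3% to 99.7% and 93.0% to 99.3%. The lowest of these shares of miR-206 came from Thy1- replicate 1, where 80 of 86 reads started at base 1 (interval 85.4% to 97.4%). Reads of 20 bases made up 6.00% to 12.2% of miR-1 reads and 1.16% to 6.85% of miR-206 reads, with the higher share in miR-1 in every library except Thy1- replicate 2. The files list only placements inside the mature miRNA, since 0 of 190621 ended past its last base, so longer forms were not analysed here. The culture, with 4938 of 5427 miR-206 reads at 22 bases, had the same most frequent length as the fresh libraries.

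**Figure D4:**
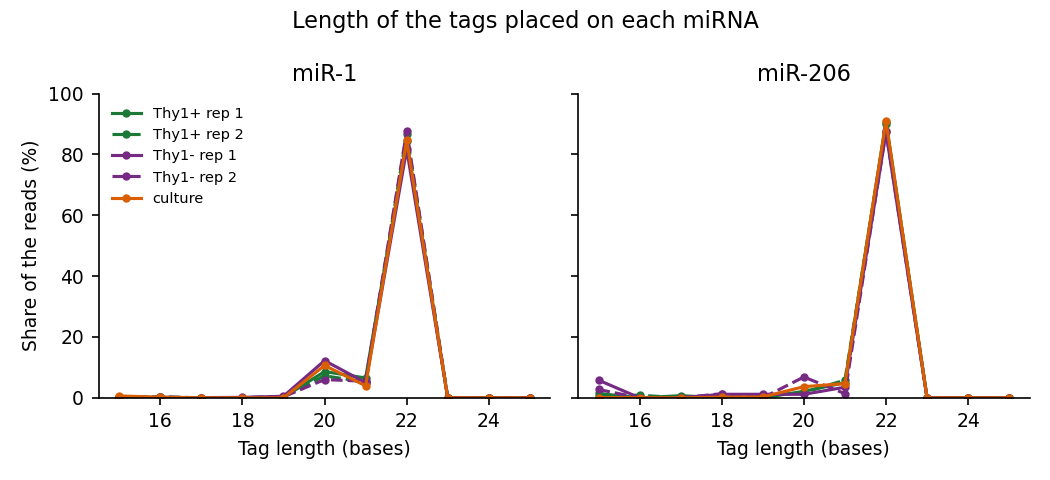
Share of the reads (%) placed on miR-1 (left) and miR-206 (right) by tag length in bases, with 1 line per library coloured by group. All 5 libraries peak at 22 bases, and miR-1 has a second, lower point at 20 bases.

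The miRNAs whose levels followed these profiles most closely over the 5 libraries were found by the root mean square difference of log2(CPM + 0.5), each miRNA centred on its own mean, among 421 others with at least 10 CPM in a library. For miR-206 they were miR-146b (0.83), miR-29a (0.87) and miR-122 (0.88), against a median of 2.62 over all. miR-122, known from liver, reached only 0.611 to 11.4 CPM. For miR-1 they were miR-193b (0.26), miR-16* (0.36) and miR-326 (0.38), against a median of 1.33. The level of miR-193b was 188 and 229 CPM in the Thy1+ libraries, 133 and 46.6 in the Thy1- libraries and 19.96 in the culture. The difference between miR-1 and miR-206 was 3.0, which ranked miR-206 420 of 421 from miR-1 and miR-1 309 of 421 from miR-206.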

How the data were processed

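The deposited files hold raw read counts per distinct tag, together with every mature miRNA that matched a tag at 2 or fewer mismatches and where it matched. The reference was miRBase 12.0 and the stated tag length 15 to 35 bases, per the file names; no listed tag was longer than 25 bases. DESeq appears in the submitters' processing notes. Adapter removal, aligner and genome build: not given in the sources used here. Totals were 937002 and 947687 miRNA counts in Thy1+, 2548234 and 4909753 in Thy1- and 5110007 in the culture. These are miRNA reads, not whole sequencing depths.

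All placements of a tag had equal mismatches. Ties were split equally and sums rounded. CPM are shares of these totals. edgeR 4.0.16 in R 4.3.3 (quasi-likelihood, TMM, filterByExpr, two-sided, Benjamini-Hochberg over all miRNAs tested, threshold 0.05) was fitted on the 4 fresh libraries for Thy1+ against Thy1- and on all 5 for the culture. SEs were taken from the fold change and the F statistic. The scripts were tested on simulated data. DESeq2 1.42.0, limma-voom (limma 3.58.1), other scalings, no filter, other tag rules, left-out libraries and a replicate block were alternatives. The members, marker lists, rules and tests were chosen with earlier results of these data known. Names were the 3 members, their hairpin products, other striated muscle miRNAs, the marker lists and the 3 closest profiles to miR-206 and to miR-1.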

Additional observations from a re-analysis of the deposited data

How the results depend on the processing

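miR-206 against Thy1- in the culture kept its direction and passed under all 13 alternatives (log2 5.46 to 6.88, edgeR, DESeq2 or limma-voom adjusted p up to 0.0356). For Thy1+ against Thy1- the replicate block gave 2.83 for miR-206 (edgeR adjusted p = 0.0579) and 32 calls in place of 120. The labels do not say that equal replicate numbers mark a shared animal or day, and the deviations of equally numbered libraries had a correlation of -0.07 over 425 miRNAs, so the numbers were not taken as pairs. With a block the log2 ratio of miR-206 to miR-1 differed by the same 2.05, as a balanced block must give, and its exact permutation p of 0.5 is the smallest 2 blocks allow. Total scaling gave 173 calls in place of 105 for the culture against Thy1+, with miR-206 at 2.05 and miR-1 at -3.84, and miR-1 at -2.78 against Thy1-. With DESeq2 miR-1 passed as lower than Thy1+ (log2 -2.14, adjusted p = 0.0284). Leaving out 1 fresh library gave 0 to 138 calls for Thy1+ against Thy1-, 0 to 128 for the culture against Thy1+ and 46 to 135 (in place of 164) for the culture against Thy1-. The counts of 0 were those of edgeR without Thy1+ replicate 1 or 2, where 112 and 108 miRNAs for Thy1+ against Thy1-, and 145 and 120 for the culture against Thy1+, had an unadjusted p under 0.05; DESeq2 and limma-voom were not run on these subsets. Without Thy1- replicate 1 the culture had 68 calls against Thy1+ and 94 against Thy1-, and without Thy1+ replicate 2 it had 46 against Thy1-. The same omissions moved miR-206 between 2.30 and 3.55, 3.31 and 4.03, and 6.17 and 6.88 in the 3 comparisons, and miR-1 in the culture between -2.67 and -2.04 against Thy1+ and between -2.21 and -0.95 against Thy1-. The ratio of miR-206 to miR-1 differed between the fractions by 1.38 to 2.72. The fitted value of miR-133a against Thy1- lay between -6.72 and -6.20 over 3 omissions. Over all 12 alternatives with a value it lay between -6.72 and -3.03. There was no value when Thy1- replicate 1 was left out. The fitted value is no measure of size, since the culture had 0 counts. The cause of these changes was not tested. miR-133a was not tested for Thy1+ against Thy1-, so alternatives were not compared for it. No log2 fold change or ratio of a member reversed its direction. The majority of calls for the culture against Thy1- turned from higher (85 and 79) to lower under total scaling (34 and 121) and without Thy1+ replicate 2 (20 and 26), Thy1- replicate 1 (35 and 59) or Thy1- replicate 2 (66 and 69).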

Other observations

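The last base of miR-1 was often not the reference base. Among full-length reads that matched miR-1 over their first 21 bases, the substitution U22C, counted from 1 at the 5′ end, made up 9.05% in Thy1+ replicate 1 (95% Clopper-Pearson interval 7.37% to 11.0%), 14.8% in replicate 2 (12.7% to 17.0%), 8.83% in Thy1- replicate 1 (7.61% to 10.2%), 9.70% in replicate 2 (8.09% to 11.5%) and 9.46% in the culture (6.75% to 12.8%). Thy1+ replicate 2 had the highest share, and its interval overlapped that of the culture but of no other library. The other substitutions of that base, U22A and U22G, had at most 2 reads each in any library. miR-206 showed no such excess of 1 base. In the culture, of 4768 reads with its first 21 bases, 78 ended in G22A, 77 in G22U and 8 in G22C. Leaving out all tags with a mismatch moved neither miR-1 nor miR-206 across the threshold in any comparison.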
